A study of Gallus gallus with 24 samples.

Results

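The male birds of an experiment on the jejunum, the middle part of the chicken small intestine, were compared with and without an injected antigen. The antigen was sheep red blood cells (SRBC), and the birds came from 2 lines, HAS and LAS, selected in opposite directions for the antibody response to it. The labels give no sex, so males were found by expression: a library was taken as male where the mean log2(TPM + 1) of chromosome W genes was 2 or less, over the 30 such genes with a mean of at least 1 TPM. TPM is the relative abundance of a gene's transcripts, corrected for length and scaled to a fixed total per library. This rule kept 11 of the 24 libraries, each from 1 bird. They were 2 injected HAS males (HASI replicates 4 and 6), 3 HAS males not injected (HASN replicates 1, 2 and 4), 3 injected LAS males (LASI replicates 1, 4 and 5) and 3 LAS males not injected (LASN replicates 1, 3 and 6). All birds carry the label of 5 days post injection, those not injected included, and the route and dose of SRBC and the age of the birds are not given in the sources used here. The controls are labelled as not injected and no sham injection is named, so the antigen and the injection itself cannot be told apart. The other 13 libraries, 7 injected and 6 not, were female by the same rule.

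SRBC are foreign particles that B cells answer with antibody, with help from T cells. In the intestine, plasma cells make IgA held together by the joining chain, and the polymeric Ig receptor carries it through the epithelium into the lumen. Epithelial cells are sealed to each other by tight junctions, of which occludin and the claudins are membrane proteins. In birds the female carries a Z and a W chromosome and the male carries a pair of Z chromosomes, so W transcripts are a female character.

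The W level chose the members and is given as a description. It was 0.16 to 0.33 in the 11 male libraries, and the female library nearest the limit was at 3.32. The level of chromosome Z genes, which the rule did not use, also separated the sexes. Over 545 Z genes the mean log2(TPM + 1) minus that of autosomal genes was -0.29 to 0.03 in males and -0.64 to -0.40 in females, with no overlap. Markers of intestinal epithelium were abundant in every male, though they do not tell jejunum from other parts of the small intestine. VIL1, the brush border protein villin, was at 925 to 1398 TPM, and FABP2, the intestinal fatty acid binding protein, at 3808 to 9444 TPM. SLC15A1, the peptide transporter of enterocytes, was at 128 to 1061 TPM, and CDH17, an intestinal cadherin, at 106 to 755 TPM.

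Male libraries differed among themselves in ways that line and injection account for only in part. The leading component of a principal component analysis took 67.9% of the variance, and along it the libraries were ordered much as by their span slope, which is how steeply log2(TPM + 1) falls as the log2 of a gene's length on the genome grows. HASN replicate 4 and LASN replicate 6 stood at one end with slopes of -0.02 and -0.01, while HASN replicates 1 and 2 had slopes of -0.25 and -0.32. The injected males LASI replicates 4 and 5 had slopes of -0.27 and -0.27 and lay at that other end too, with scores on the component of 75.0 and 59.7 against 30.2 and 72.7 for HASN replicates 1 and 2. HASN replicates 1 and 2 also had the fewest genes above 0 TPM, 13813 and 13916, against 14653 in HASN replicate 4. The count of genes called and some of the other results are also given without HASN replicates 1 and 2 or without HASN replicate 4 and LASN replicate 6. With the lines pooled, injected and not injected males overlapped in all 4 library measures, as they did within HAS. Within LAS they overlapped only in the number of genes above 0 TPM. Span slopes were -0.27 to -0.17 in injected and -0.16 to -0.01 in not injected LAS males, and scores on the component 16.9 to 75.0 against -92.7 to -16.9. Their mitochondrially encoded shares were 20.2% to 26.2% against 9.54% to 18.2%. The 10 most abundant genes took 21.8% to 26.8% against 11.3% to 20.4%. The mitochondrially encoded share of TPM was 23.1% ± 2.55 (SD, n = 5) in injected and 17.2% ± 4.83 (n = 6) in not injected males (exact two-sided permutation test within line, p = 0.04, adjusted 0.16 over 4 measures). The span slope was -0.20 ± 0.07 against -0.15 ± 0.12 (exact permutation p = 0.435), and the number of genes above 0 TPM was 14359 ± 88.4 against 14202 ± 381 (exact permutation p = 0.41). The 10 most abundant genes took 24.0% ± 2.23 against 19.5% ± 5.47 (exact permutation p = 0.15). That measure followed the mitochondrially encoded share, so it is not a separate difference. The top 10 and mitochondrial shares were 25.9% and 25.4% in HASI replicate 4, 23.8% and 20.7% in HASN replicate 1, and 11.3% and 9.54% in LASN replicate 6. The smallest p this design allows is 0.005.

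**Figure D1:**
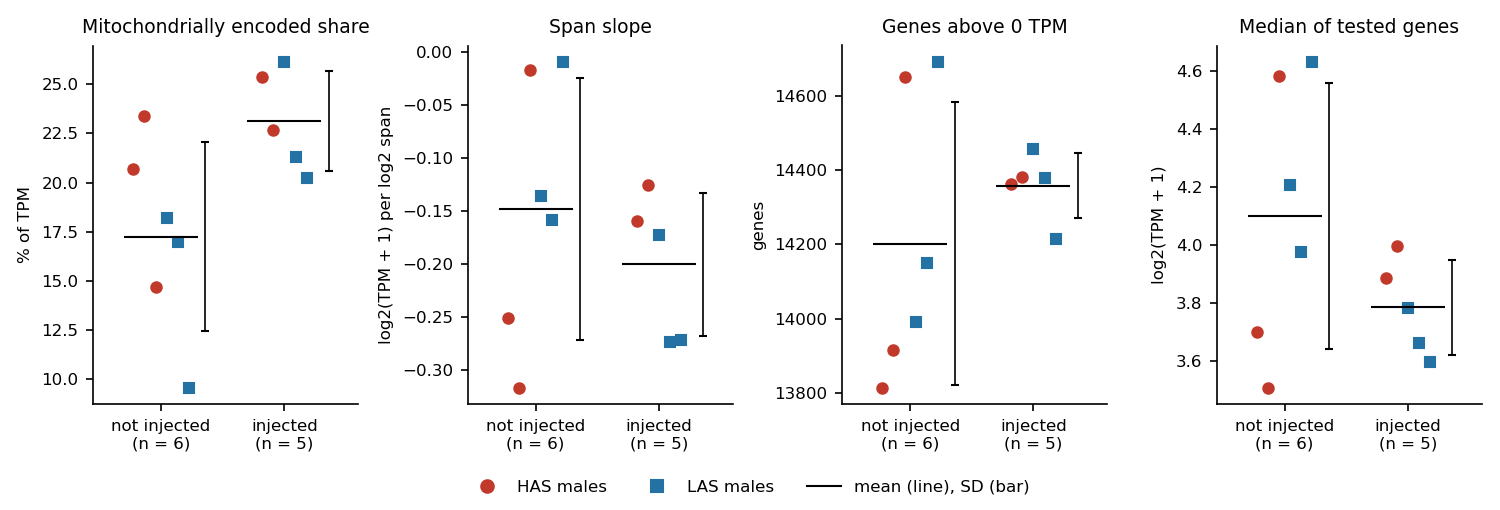
Each point is 1 male library, HAS as circles and LAS as squares, with the group mean as a line and the SD as a bar. The panels give the mitochondrially encoded share in percent of TPM, the span slope, the number of genes above 0 TPM and the median log2(TPM + 1) of tested genes. With the lines pooled the groups overlap in all 4 panels, and within LAS only in the number of genes above 0 TPM. HASN replicate 4 and LASN replicate 6 have slopes of -0.02 and -0.01.

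Comparing injected with not injected males asks which jejunal genes differ after injection in males of both lines. A small set of genes was lower in injected males. It held WIPF2, a partner of the WASP proteins that drive actin assembly, and a pair of genes without a symbol. Of 12709 genes tested, 3 were lower and 0 were higher at an adjusted p below 0.05 (limma with line as a factor, Benjamini-Hochberg adjustment), which is 0.0236% of all tested. At an unadjusted p below 0.05 there were 157 higher (1.24%) and 673 lower (5.3%). Most genes lay on the lower side: 9646 had a negative log2 fold change, and the median over all tested genes was -0.22. After median-ratio rescaling of the libraries that median was 0.0099, and 1 gene was higher and 1 lower (0.0157% in all), neither of them among the 3. With the span slope as a covariate 10 were higher (0.0787%) and 153 lower (1.2%), the 3 included. Fold changes below are on log2(TPM + 1) and can be read against this shift. In bulk tissue, fewer cells of a type and less RNA per cell cannot be told apart.

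WIPF2 (ENSGALG00000037633, chromosome 27, 7205604 to 7209687) was at 7.25, 7.92, 7.30, 5.80 and 8.11 TPM in the 5 injected males. In the 6 not injected males it ran from 15.8 to 20.8 TPM with a median of 19.0. Every injected male of both lines lay below every male not injected. The means were 7.28 ± 0.908 (SD, n = 5) and 18.8 ± 1.66 (n = 6), and WIPF2 fell by 1.25 on the log2 scale (SE 0.16, limma adjusted p = 0.0390).

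ENSGALG00000047515 (chromosome 30, 301369 to 302518) was at 21.6, 22.6, 21.8, 24.0 and 23.3 TPM in injected males. In not injected males the lowest value was 44.8, the median 57.0 and the highest 62.9 TPM. The injected values were tightly grouped and all lay at about the same level in HAS and LAS. The means were 22.6 ± 1.01 against 55.6 ± 7.49 TPM, which is -1.25 on the log2 scale (SE 0.14, limma adjusted p = 0.0244).

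ENSGALG00000054033 (chromosome 5, 40114 to 58105) was nearly absent after injection, at 0.371, 0.156, 0.744, 0.411 and 0.546 TPM. It ran from 3.36 to 14.2 TPM in not injected males, with a median of 6.43. The groups did not overlap, and the not injected males were the more variable. The means were 0.446 ± 0.218 against 7.42 ± 3.83 TPM, and the log2 difference was -2.44 (SE 0.31, limma adjusted p = 0.0390). All injected values were below the 1 TPM added before the log, so the size of this difference depends on that choice. Over the alternatives other than leaving out each male in turn it ran from -3.77 to -2.28.

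These 3 differences kept their direction and size under each omission, and lost their calls under most. With each of the 11 males left out in turn, the log2 fold change of WIPF2 stayed between -1.30 and -1.19, but its adjusted p was 0.0896 to 0.314 and it was called in 0 of 11 fits. ENSGALG00000047515 was called in 3 of 11 such fits (without HASN replicate 2, HASN replicate 4 or LASN replicate 6) and ENSGALG00000054033 in 2 of 11 (without HASN replicate 1 or 2). After rescaling the log2 fold changes were -1.02, -1.01 and -2.28 for WIPF2, ENSGALG00000047515 and ENSGALG00000054033, with adjusted p-values of 0.151, 0.304 and 0.105.

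**Figure D2:**
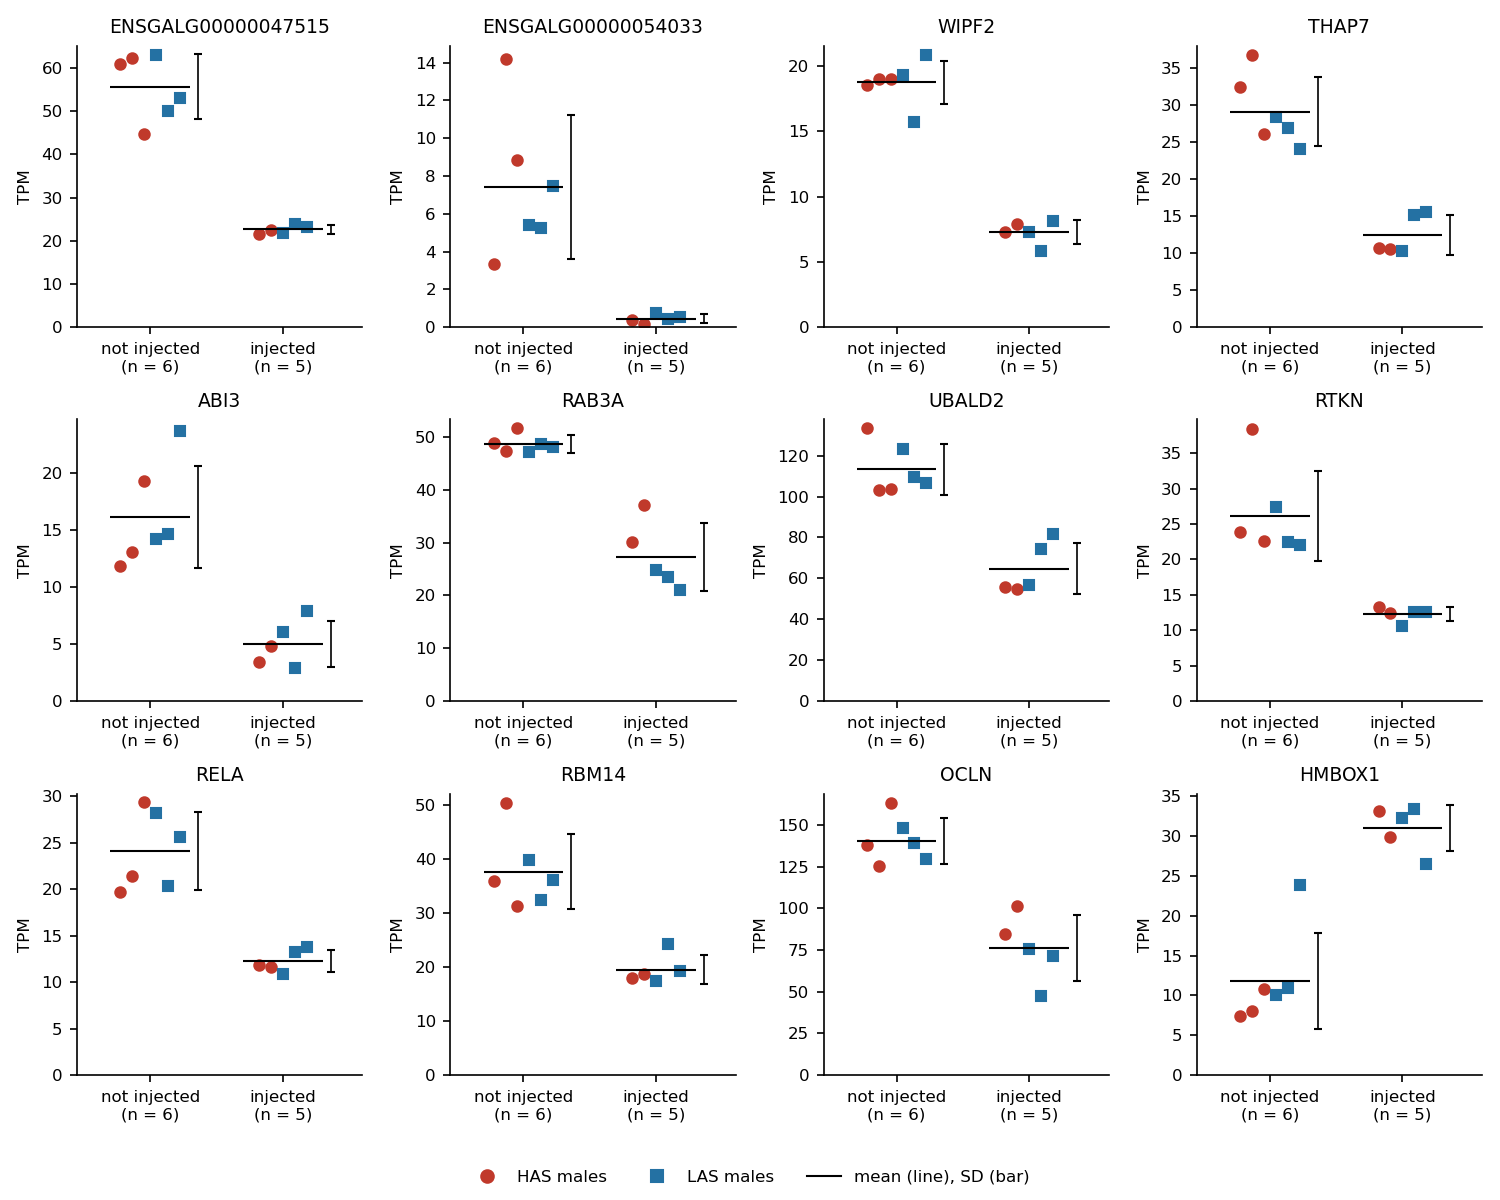
TPM in each male library for the 3 called genes and the other genes with a symbol and the smallest p, HAS as circles and LAS as squares, with the mean as a line and the SD as a bar. In all 12 panels the 5 injected males lie on one side of the 6 not injected males, above them for HMBOX1 and below them for the others, and 3 of the 12 passed the test.

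Of the 10 genes with a symbol and the smallest p, WIPF2 alone was called. The other 9, with limma adjusted p-values of 0.112 to 0.174, are given by their values. In all 10 the groups did not overlap. Over all tested genes every injected male lay below every male not injected in 128 (1.01%) and above in 43 (0.338%), and these 10 were picked by their p.

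Beside WIPF2, another regulator of actin had a low value after injection. ABI3, a member of the ABI family that sits in the WAVE actin complex, was at 3.42, 4.82, 6.02, 2.86 and 7.92 TPM in injected males. In not injected males it ran from 11.8 to 23.6 with a median of 14.4. Its log2 fold change was -1.57 (SE 0.27, adjusted p = 0.148). RTKN was at 12.3 ± 0.987 TPM in injected and 26.1 ± 6.32 in not injected males, a log2 fold change of -0.99 (adjusted p = 0.153). RAB3A, a small GTPase of regulated secretion, was at 27.3 ± 6.40 against 48.6 ± 1.69 TPM (-0.81, adjusted p = 0.153).

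Among regulators of transcription, RELA, the p65 subunit of NF-kappaB that immune receptors activate, was at 11.8, 11.6, 10.9, 13.2 and 13.7 TPM in injected males. It ran from 19.7 to 29.4 TPM in not injected males, with a median of 23.5. The gap between the groups was wider than the whole range of the injected males. Its log2 fold change was -0.92 (SE 0.17, limma adjusted p = 0.153), with -0.93 in HAS and -0.91 in LAS. THAP7, a zinc finger repressor of transcription, was at 12.4 ± 2.71 against 29.1 ± 4.68 TPM (-1.17, adjusted p = 0.112). RBM14, an RNA-binding coactivator, was at 19.5 ± 2.69 against 37.6 ± 6.96 TPM (-0.91, adjusted p = 0.153). Outside these regulators, UBALD2 was at 64.6 ± 12.5 against 113 ± 12.4 TPM (-0.83, adjusted p = 0.153).

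HMBOX1, a homeobox protein that binds telomere repeats, was the only one of the 10 on the higher side. It was at 33.1, 29.9, 32.3, 33.5 and 26.5 TPM in injected males and ran from 7.46 to 23.8 with a median of 10.4 in the others. A single not injected male, LASN replicate 6, came near the injected range. Its log2 fold change was 1.38 (SE 0.25, adjusted p = 0.153), and it was the gene called higher after rescaling (1.63, adjusted p = 0.0158). Without HASN replicate 4 and LASN replicate 6 it was called too (1.66, adjusted p = 0.0179), and WIPF2 was not (adjusted p = 0.130).

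OCLN, which encodes occludin, was at 84.4, 101, 75.8, 47.2 and 71.5 TPM in injected males. In not injected males the lowest, median and highest values were 125, 138 and 163 TPM. The highest injected male stayed below the lowest not injected one. The means were 76.1 ± 19.8 against 140 ± 13.6 TPM, or -0.89 on the log2 scale (SE 0.17, limma adjusted p = 0.174), with -0.60 in HAS and -1.11 in LAS. Without HASN replicates 1 and 2, with HASN replicate 4 as the only not injected HAS male, its log2 fold change was -1.02. The median over all tested genes in that fit was -0.39. Without HASN replicate 4 and LASN replicate 6 OCLN was not called (-0.86, adjusted p = 0.302).

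All 24 libraries were also fitted together, with line, sex and injection within each sex, so that the male difference was judged by the spread of both sexes. In that fit 17 genes rose (0.134% of those tested) and 43 fell (0.338%) in males, the 3 above and all of the 10 with a symbol included. Those of the others that are named here were chosen after their values were seen. OCLN fell by -0.90 (SE 0.18, adjusted p = 0.0183), RELA by -0.91 (adjusted p = 0.00375), and HMBOX1 rose by 1.39 (adjusted p = 0.0103). With rescaling as well RELA and HMBOX1 kept their calls (adjusted p = 0.0242 and 0.000429) and OCLN did not (adjusted p = 0.113).

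Other genes that fell in the 24-library fit included nuclear receptors. RARG, a retinoic acid receptor, was at 6.06 ± 0.754 TPM in injected and 12.4 ± 2.07 in not injected males (log2 fold change -0.91, adjusted p = 0.00349). NR2F6, an orphan nuclear receptor, was at 184 ± 9.51 against 280 ± 35.3 TPM (-0.59, adjusted p = 0.0137). UBTF, a factor for transcription of ribosomal RNA genes, was at 36.8 ± 2.69 against 53.8 ± 5.84 TPM (-0.53, adjusted p = 0.0148). In each of these every injected male lay below every male not injected. ST3GAL4, a sialyltransferase, fell by -1.16 with line in the model (SE 0.22, adjusted p = 0.0137). Its groups overlapped, at 95.8 ± 95.1 and 225 ± 243 TPM, with a wide spread within each, where HAS and LAS males are pooled. With rescaling none of these 4 was called, the adjusted p-values being 0.0530 for RARG, 0.430 for NR2F6, 0.379 for UBTF and 0.0730 for ST3GAL4.

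Genes that rose in this fit included ATRX, a chromatin remodeller, at 79.2 ± 41.8 TPM in injected and 26.3 ± 11.1 in not injected males (1.47, adjusted p = 0.00793). POU2F1, the octamer-binding factor Oct-1, was at 10.2 ± 5.46 against 2.92 ± 1.65 TPM (1.48, adjusted p = 0.0137). EIF5B, a factor that joins ribosomal subunits at the start of translation, was at 160 ± 68.8 against 72.1 ± 25.9 TPM (1.11, adjusted p = 0.0235). These 3 kept their calls with rescaling (adjusted p = 0.00678 for each). In all 17 that rose every injected male lay above every male not injected, against 0.338% of all tested genes. Every injected male lay below in 37 of the 43 that fell, against 1.01%. The genes were called from these same male values, so such counts only describe them.

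The genes that fell and rose in the 24-library fit differed in where they lie. Of the 43 that fell, 29 (67.4%) were on chromosomes 25 to 33, small chromosomes rich in short genes, against 10.8% of all tested genes and 0 of the 17 that rose. The median genomic span was 6.17 kb for those that fell, 10.2 kb for those that rose and 13.3 kb for all tested. With the span slope as a further term all 17 and all 43 kept their calls. The slope was taken from these same values, and that fit called 105 genes higher and 570 lower. Its median SE was 0.16, against 0.24 without the term, so the kept calls cannot tell whether span has a part. After rescaling 16 of the 17 and 15 of the 43 kept theirs, and the split became 45 higher and 23 lower. The share of GC in these genes and its part in the result was not tested.

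The mitochondrial genome encodes 13 proteins of the respiratory chain. All 13 had positive log2 fold changes in males, with a median of 0.57 against -0.22 over all tested genes, and 9 reached an unadjusted p below 0.05, but 0 of 13 were called. The values moved with the mitochondrially encoded share given above, of which they are the parts. In HAS males the median was 0.46 and in LAS males 0.69.

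ND6, a complex I subunit and the one protein-coding gene on its strand of that genome, was the only mitochondrial gene whose groups did not overlap. It was at 3710, 3409, 4194, 5994 and 4849 TPM in injected males, and ran from 992 to 3262 with a median of 2100 in the others. The lowest injected male was just above the highest not injected one. Its log2 fold change was 1.24 (SE 0.34, adjusted p = 0.464).

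ATP8, a small subunit of ATP synthase, was at 4705, 4576, 4696, 2262 and 3991 TPM in injected males and from 1133 to 3400, median 2164, in the others. One injected male, LASI replicate 4, lay within the range of the not injected males. Its log2 fold change was 0.97 (SE 0.32, adjusted p = 0.588). CYTB, the mitochondrial subunit of complex III, was at 20320 ± 3112 against 13561 ± 4620 TPM (0.70, adjusted p = 0.602).

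The other complex I subunits ND1, ND2, ND3, ND4, ND4L and ND5 had log2 fold changes of 0.55, 0.57, 0.80, 0.62, 0.62 and 0.45. The complex IV subunits COX1, COII and COX3 and the ATP synthase subunit ATP6 had values of 0.34, 0.57, 0.36 and 0.43. COX1 and COX3 thus had the smallest values and ND6 the largest. With the span slope as a covariate ND6 was called (adjusted p = 0.0152). Without HASN replicates 1 and 2 together 8 of 13 were called, in a fit that called 2.32% of all tested genes higher and 35.5% lower. Without HASN replicate 4 and LASN replicate 6 together 0 of 13 were called, with a median of 0.37. The nuclear genes of oxidative phosphorylation had a median of 0.13 over 59 tested members, with -0.09 in HAS males and 0.34 in LAS males, and 0 were called. That median was -0.04 with the span slope and -0.09 without HASN replicate 4 and LASN replicate 6. It was 0.39 after rescaling and 0.41 without HASN replicates 1 and 2.

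**Figure D3:**
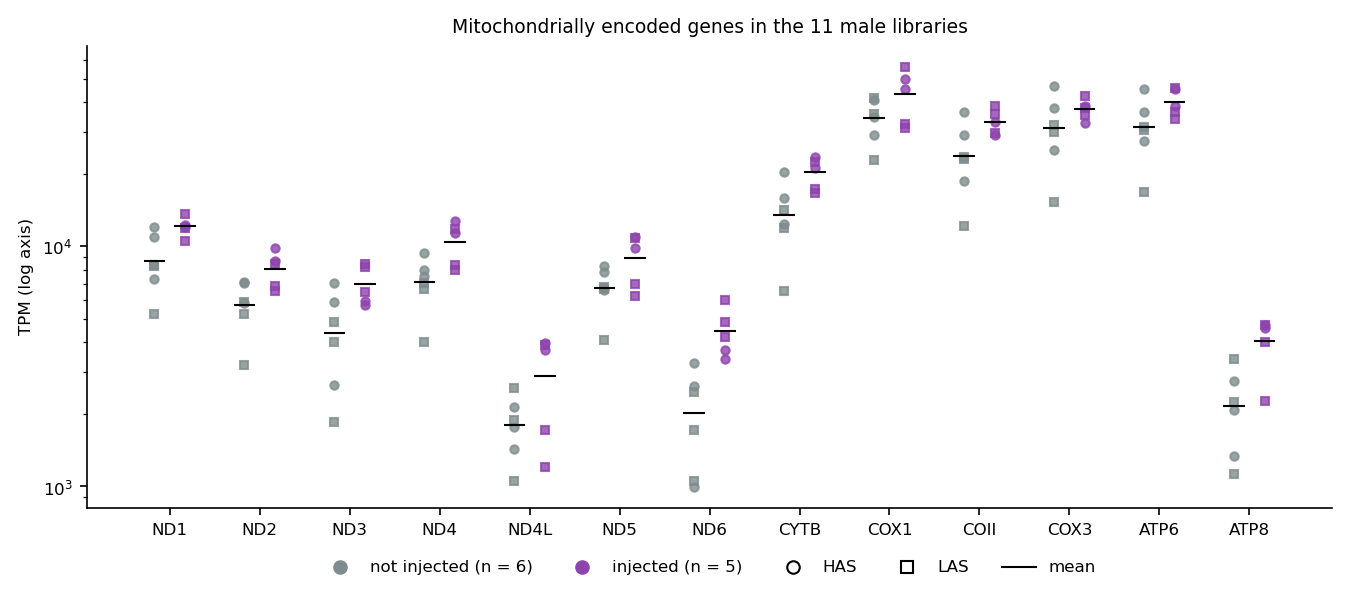
TPM on a log axis of the 13 mitochondrially encoded genes in the 11 male libraries, not injected in grey and injected in purple, HAS as circles and LAS as squares, with the group mean as a line. The injected mean is above the not injected mean for all 13, and the groups do not overlap for ND6.

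Genes of the antibody route and of antigen presentation did not pass the test in males. JCHAIN, the joining chain, was at 828, 1251, 1055, 432 and 1596 TPM in injected males and from 656 to 2484, median 894, in the others. The groups overlapped throughout, and JCHAIN had a value of -0.23 on the log2 scale (SE 0.38, limma adjusted p = 0.775) that became 0.02 after rescaling. PIGR, the polymeric Ig receptor, was at 1982, 2785, 2364, 1172 and 1881 TPM in injected males and from 1411 to 3473, median 1671, in the others (0.15, SE 0.25, adjusted p = 0.780).

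BLB1, a class II beta chain of the major histocompatibility complex, differed mostly by line. It was at 135 and 154 TPM in injected HAS males and 1514, 1943 and 2506 in injected LAS males. In not injected HAS males it was at 271, 317 and 182 TPM, and in not injected LAS males at 1900, 1787 and 1757. The log2 fold change with injection was -0.79 in HAS and 0.10 in LAS males, and -0.30 over both (adjusted p = 0.602). Its gene model overlaps that of BF1 on the map, so reads could be split between them, which was not tested. BF2, a class I alpha chain, was at 6087 ± 1792 against 7682 ± 3333 TPM (-0.19, adjusted p = 0.625, and 0.06 after rescaling).

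Other genes fixed for their cell type also overlapped between the groups. PTPRC, the leukocyte antigen CD45, was at 41.6 ± 14.9 TPM in injected and 74.8 ± 38.1 in not injected males (-0.77, SE 0.40, adjusted p = 0.602). TCF7, a T cell transcription factor, was at 2.29 ± 0.440 against 4.48 ± 3.24 TPM (-0.60, adjusted p = 0.602). LGR5, a crypt stem cell receptor, was at 1.43 ± 0.921 against 6.02 ± 5.92 TPM (-1.15, SE 0.60, adjusted p = 0.602). Without HASN replicates 1 and 2, with HASN replicate 4 as the only not injected HAS male, PTPRC, TCF7 and LGR5 had -1.24, -0.99 and -1.92. The median over all tested genes in that fit was -0.39. Without HASN replicate 4 and LASN replicate 6 PTPRC, TCF7 and LGR5 had -0.37, -0.32 and -0.41, against a median of -0.06 over all tested genes.

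For these last genes the spread sat in the not injected males. LGR5 ran from 0.350 TPM in HASN replicate 2 to 15.5 in LASN replicate 6 among males that had no injection. TCF7 in such males was at 0.780 to 3.37 TPM in HAS and 5.59 to 9.45 in LAS. By line, PTPRC, TCF7 and LGR5 had log2 fold changes of -0.05, 0.14 and -0.40 in HAS and -1.35, -1.19 and -1.75 in LAS males. None was called for the line difference (limma adjusted p = 0.415, 0.415 and 0.529). ACTA2, smooth muscle actin, was at 115 ± 50.9 against 81.1 ± 28.9 TPM (0.42, adjusted p = 0.602), and CHGA, the endocrine granule protein chromogranin A, at 506 ± 74.7 against 464 ± 84.4 (0.13, adjusted p = 0.709). VIL1 (-0.13, adjusted p = 0.663), FABP2 (-0.0088, adjusted p = 0.991) and the claudin gene CLDN1 (-0.04, adjusted p = 0.938) had small values whose sign turned after rescaling. IFNG, interferon gamma, was at most 1.14 TPM in any male and was not tested.

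Read by gene list, 0 of 683 listed genes tested were called in males in either direction, over 34 lists of pathways and cell types, against 0.0236% of all genes. The medians of 27 lists were negative, and of 17 lists after rescaling. The interferon-stimulated list had a median of -0.59 over 21 tested members, against -0.22 over all genes. All 21 had a negative value, as did 9646 of the 12709 tested genes. After rescaling the medians of the list and of all genes were -0.34 and 0.0099. By line the list's median was -0.61 in HAS and -0.43 in LAS males, and after rescaling -0.62 and 0.03. Its tested members summed to 976 to 7271 TPM in injected and 1501 to 4346 TPM in not injected males, so the sums overlapped. The list members CYBA, FOS, FOSL2 and CDK1 below were named after their values were seen.

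The circadian clock list had a median of -0.57 over 16 members, with 0.24 in HAS and -1.05 in LAS males, and it was -0.37 after rescaling and -0.26 without HASN replicate 4 and LASN replicate 6. The macrophage, dendritic cell and heterophil list had a median of -0.46, with 22 of 23 members negative, and its 26 genes in the table summed to 621 to 1119 TPM in injected and 1088 to 1609 TPM in not injected males. Its median was -0.24 after rescaling and -0.13 without HASN replicate 4 and LASN replicate 6. CYBA, a subunit of the phagocyte oxidase, was at 119 ± 22.1 against 207 ± 66.5 TPM (-0.74, adjusted p = 0.547). The Toll-like receptor list, of microbial sensors and their adaptors, had a median of -0.30 with 15 of 15 negative, which was -0.10 after rescaling and -0.02 without HASN replicate 4 and LASN replicate 6.

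The immediate early list, of genes switched on soon after a stimulus, had a median of -0.28, which was -0.03 after rescaling, with FOS at 42.4 ± 17.5 against 87.1 ± 28.2 TPM (-0.99, adjusted p = 0.426). FOSL2, another AP-1 subunit, was at 13.6 ± 8.38 against 71.9 ± 56.2 TPM (-1.95, SE 0.74, adjusted p = 0.602), with -0.34 in HAS and -3.24 in LAS males. T cell genes had a median of -0.31 over 18 members, which was -0.10 after rescaling and -0.26 without HASN replicate 4 and LASN replicate 6. The 19 in the table summed to 340 to 670 TPM in injected and 483 to 746 in not injected males. The tight junction list had a median of -0.35 over 17 members, which was -0.10 after rescaling and -0.07 without HASN replicate 4 and LASN replicate 6. OCLN was its 1 member called in the 24-library fit, a call lost with rescaling.

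Lists with a positive median were few. Cell cycle genes had a median of 0.17, with 21 of 27 positive, which was 0.41 after rescaling and 0.14 in HAS and 0.27 in LAS males. The median came to 0.04 without LASN replicate 3 and was -0.01 with the replicate number as a block. CDK1, the kinase that starts mitosis, was at 100 ± 22.0 TPM in injected and 68.0 ± 12.2 in not injected males (0.53, SE 0.18, adjusted p = 0.602). Cytosolic ribosomal protein genes had a median of 0.14 with 60 of 70 positive, but it was -0.02 with the span slope and -0.05 without HASN replicate 4 and LASN replicate 6. It was 0.40 after rescaling and 0.37 without HASN replicates 1 and 2. Over 29 genes of smooth muscle and stroma the median was 0.13, which turned negative without LASN replicate 3 or LASI replicate 4 (lowest -0.06), and they summed to 4317 to 16534 TPM in injected and 3313 to 10573 in not injected males.

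Markers of other tissues in the sample were low or overlapped. The pancreas list had 12 genes in the table, of which 8 stayed below 0.5 TPM in every male and CPB1, a pancreatic carboxypeptidase, was listed at 0, with sums of 2.50 to 9.66 TPM over all males. Erythrocyte and blood genes summed to 290 to 1141 TPM in injected and 338 to 1550 in not injected males. The part of macrophage, T cell, muscle and blood content in the differences above was not tested.

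Comparing the injection effect between HAS and LAS males asks whether the lines responded alike. The lists of sugar, peptide and lipid absorption had positive medians in HAS males and negative ones in LAS males, without any gene passing the test of the difference. Of 12709 genes 0 were called for the difference between lines (smallest adjusted p 0.415), and 1266 had an unadjusted p below 0.05 (9.96%). That number was 228 without HASI replicate 6, 5662 without HASN replicate 4 and 93 with the replicate number as a block. In HAS males 0 genes were called, with 256 at an unadjusted p below 0.05 and a median log2 fold change of 0.01. In LAS males 0 were called, with 3368 at an unadjusted p below 0.05 and a median of -0.37. Injected LAS males all had steeper span slopes than LAS males not injected, and the part of this in the LAS values was not tested.

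Medians lay on opposite sides of 0 in 17 of 34 lists, positive in HAS and negative in LAS males in 12 and the reverse in 5. For peptide and amino acid absorption they were 0.67 in HAS and -1.10 in LAS males, for goblet cell and mucus genes 0.44 and -0.97, and for cholesterol and fatty acid synthesis 0.81 and -0.64. Cytosolic ribosomal protein genes were at -0.24 and 0.46. After rescaling, which brought the medians of all tested genes to 0.01 and 0.04, medians of 22 lists lay on opposite sides of 0. Those of the 4 lists just named were then 0.66 and -0.63, 0.43 and -0.50, 0.80 and -0.18, and -0.25 and 0.93. The value in HAS rests on 2 injected and 3 not injected males whose slopes differ widely.

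Genes with a symbol and the smallest p for the line difference were RD3, LBH, NSDHL, CCBE1 and TM4SF1, each with an adjusted p of 0.415. NSDHL, an enzyme of cholesterol synthesis, was at 45.6 and 49.2 TPM in injected and 23.1, 15.8 and 16.6 in not injected HAS males. In LAS males it was at 35.0, 13.7 and 21.7 TPM after injection and 33.2, 41.0 and 58.3 without it. The values were thus higher after injection in HAS (log2 fold change 1.33), and in LAS the value was -0.94 with groups that overlapped. LBH, a transcription cofactor, had 0.80 in HAS and -0.53 in LAS males, and RD3 had 0.92 and -2.45. CCBE1, a protein of lymphatic vessel growth, had 0.17 and -2.17, and TM4SF1, a membrane protein, 0.67 and -1.02.

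A single library decided how many genes passed this test. Without HASN replicate 4 the difference between lines was called in 3430 genes in the higher and 384 in the lower direction of HAS minus LAS, and in 0 genes when any other male was left out. HASN replicates 1 and 2 then remain as the not injected HAS males, both with a steep slope and few genes above 0. Leaving those 2 out instead, the injection effect over both lines was called in 295 higher and 4517 lower genes, with HASN replicate 4 as the only not injected HAS male, which the model takes to vary like the other groups. The part of library quality in the line difference was not tested.

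**Figure D4:**
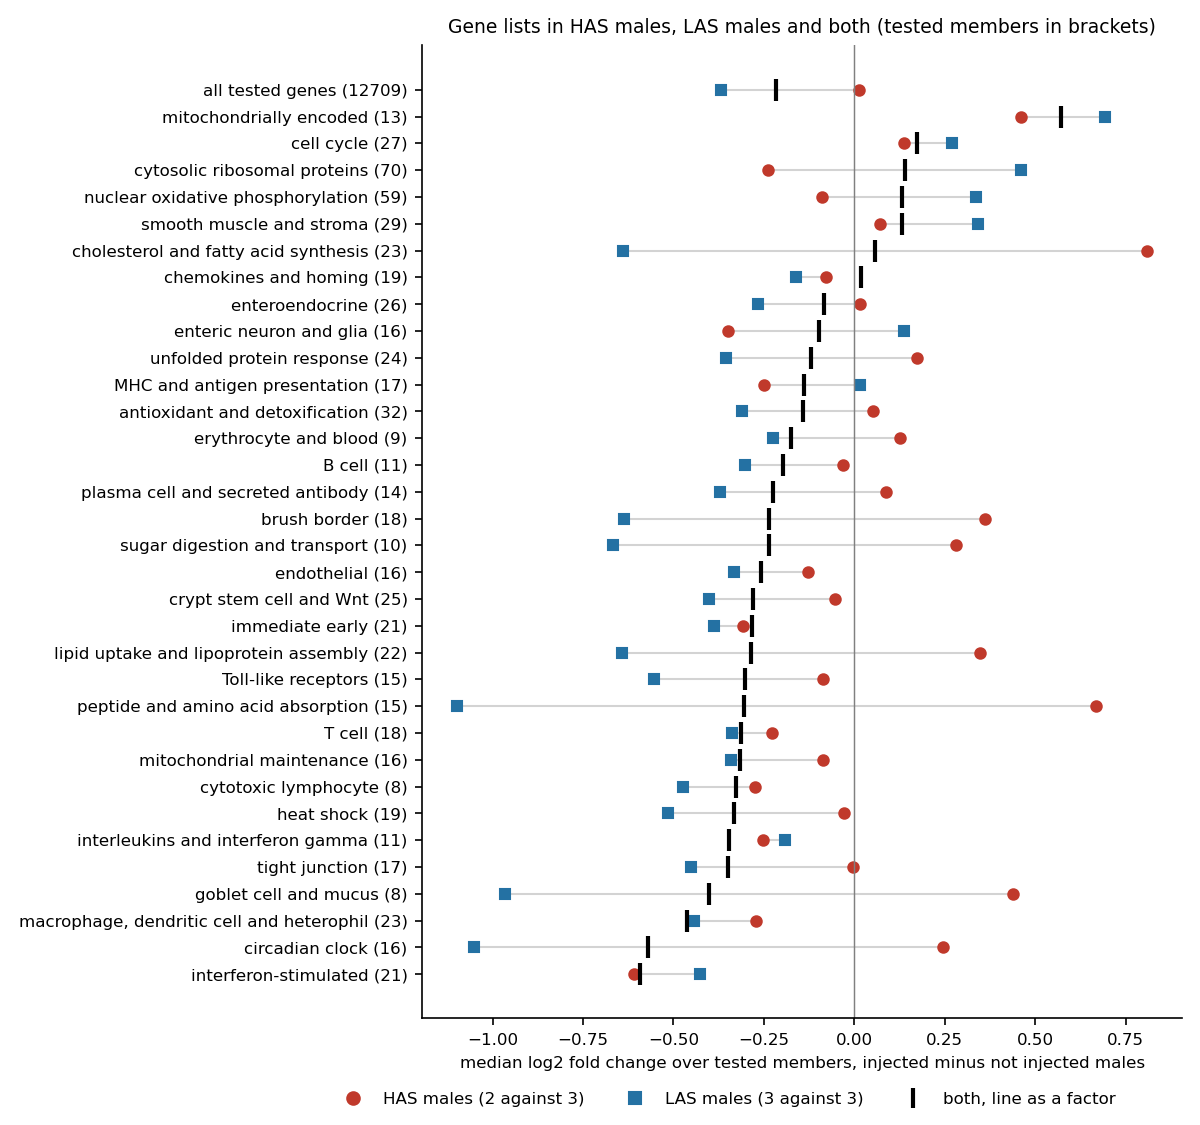
Median log2 fold change, injected minus not injected, over the tested members of each gene list in HAS males (circles), LAS males (squares) and both with line as a factor (bars), with the median of all tested genes in the top row. The pancreas list, with 1 tested member, is left out. Peptide and amino acid absorption spans from 0.67 in HAS to -1.10 in LAS, and the mitochondrially encoded genes lie at 0.46 and 0.69.

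Setting males beside females asks whether the difference with injection is unlike between the sexes. Of 12709 genes 0 were called for the difference between the sexes (smallest adjusted p 0.973), and 113 had an unadjusted p below 0.05 (0.889%). No gene was thus called as particular to males. In the 24-library fit the female effect was called in 115 genes higher (0.905%) and 3197 lower (25.2%), with a median of -0.37. Females alone, 7 against 6, gave 152 higher (1.2%) and 4101 lower (32.3%). Their span slopes were -0.20 ± 0.06 (SD, n = 7) in injected and -0.09 ± 0.10 (n = 6) in not injected birds.

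The genes lower in males were lower in females by similar amounts. WIPF2 was at 4.07 to 10.4 TPM in injected females, median 6.63, and 14.8 to 22.1 in not injected ones, median 18.5. Injected females all lay below the others, as in males. The log2 fold change in females alone was -1.42 (SE 0.19, limma adjusted p = 0.00229). ENSGALG00000047515 had -1.29 in females (adjusted p = 0.00143) and ENSGALG00000054033 had -2.55 (adjusted p = 5.31e-06), each with no overlap. All 17 genes that rose and all 43 that fell in males in the 24-library fit were called with the same sign in females alone. Females alone called 152 genes higher (1.2% of all tested) and 4101 lower (32.3%). The 24-library fit took its spread and line term from these females too, so this is not an independent check.

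Genes with a symbol and the smallest p for the sex difference were HTR4, ARL16, HIST1H46, EXOC3L1 and P2RY13. HTR4, a serotonin receptor, was at 5.26, 6.90, 6.92, 6.82 and 7.23 TPM in injected males and 3.71 to 9.28, median 7.89, in the others. In females it ran from 2.01 to 7.21, median 4.07, after injection and from 4.66 to 14.1, median 11.5, without. The difference in log2 fold change, male minus female, was 1.05 (adjusted p = 0.973). In the 24-library fit PIGR had 0.14 in males and -0.65 in females (female adjusted p = 0.0406). The PIGR difference of 0.78 did not pass either (adjusted p = 0.973). The cell cycle list had a median of 0.18 in males and -0.38 in females in that fit, a difference that was not tested.

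**Figure D5:**
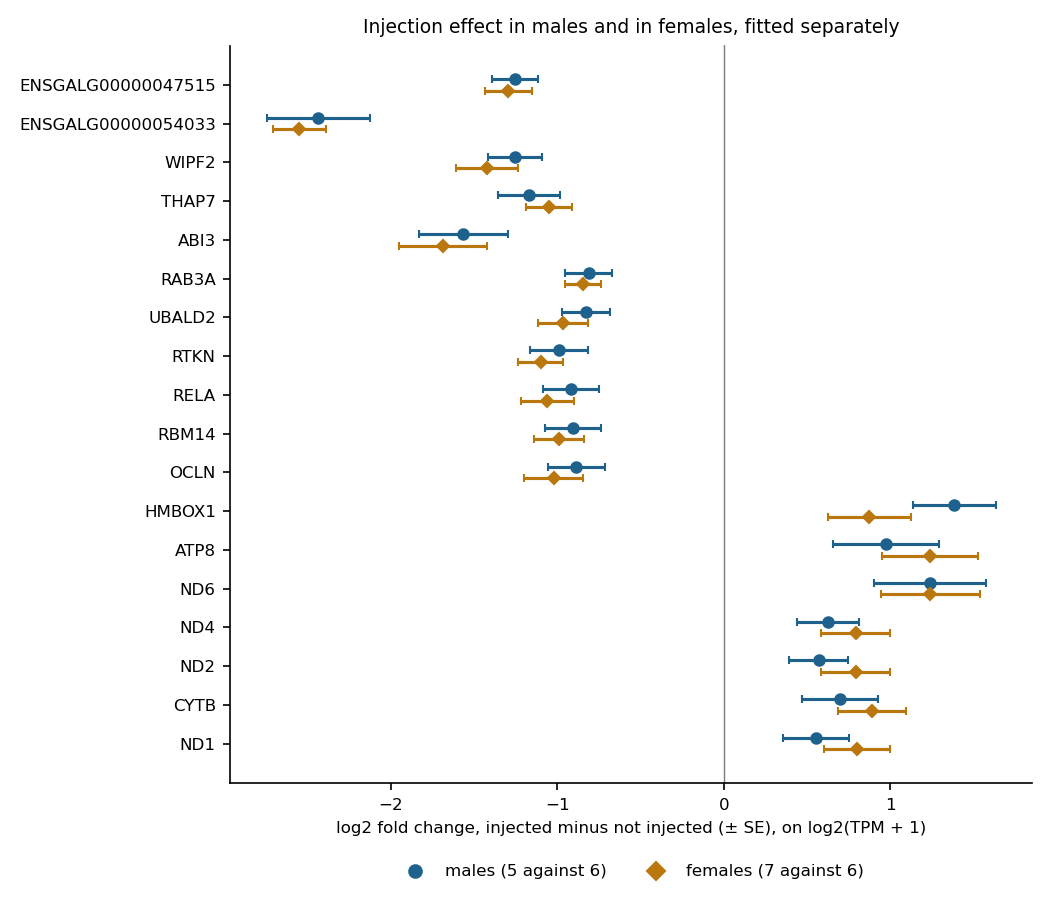
Log2 fold change on log2(TPM + 1), injected minus not injected, with its SE, in males (circles, 5 against 6) and in females (diamonds, 7 against 6) fitted separately, for the called genes, the other genes with the smallest p and 6 mitochondrial genes. Males and females lie on the same side of 0 for all genes shown, and HMBOX1 has 1.38 in males and 0.87 in females.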

How the data were processed

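RNA of 24 jejuna was sequenced, 1 library per bird. The deposited table gives TPM for 15618 genes, 12132 with a symbol. The authors made it with genome build galGal6, per the submitters' processing notes, and the aligner, counting tool and annotation are not given in the sources used here. TPM keep no read counts, so the depth is unknown and no counting interval is given.

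Genes off chromosome W with at least 0.5 TPM in at least 5 male libraries were tested (12709), as log2(TPM + 1), with limma 3.58.1 in R 4.3.3 (intensity trend, robust empirical Bayes, line as a factor, 8 residual degrees of freedom). Tests were two-sided with Benjamini-Hochberg adjustment over all tested genes, and a gene was called below 0.05. Library measures were compared by exact permutation within line. The model was checked on simulated data with noise drawn separately for each gene and library. Shifts shared by the genes of a library were not part of that check.

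Named genes were the called ones, the 10 with a symbol and the smallest p, a fixed set of cell type and barrier genes, the 13 mitochondrial genes, and 5 per interaction. MKI67, SI, MUC2 and HBAA are not in the table under those symbols. Members and lists were chosen with earlier results of these data known. No batch or date was used, and the birds are separate by the study's count of chickens. Of the 55 pairs of male libraries 0 were identical (correlations 0.796 to 0.986). Alternatives were median-ratio rescaling, other filters and pseudocounts, a fold limit, the span slope, the replicate block, all 24 libraries, other terms for line, not robust moderation, and each library left out. Some items are not reported here.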

Additional observations from a re-analysis of the deposited data

Results flagged for a closer look

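Dixon's test for a single extreme value was applied to 82 sets of 5 or 6 male libraries, of which it marked 6, and chance marks about 1 in 20. In not injected males the highest value stood apart for RAB3A (51.8 TPM in HASN replicate 4, next 48.8), RTKN (38.4 TPM in HASN replicate 2, next 27.4) and HMBOX1 (23.8 TPM in LASN replicate 6, next 10.9). It also stood apart for PIGR (3473 TPM in HASN replicate 4, next 1782) and CHGA (628 TPM in HASN replicate 4, next 468). In injected males it did so for RBM14 (24.2 TPM in LASI replicate 4, next 19.2). HASN replicate 4, with 3 of the 6 values, is one of the male libraries with a span slope near 0, and the part of that slope in its values was not tested.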

How the results depend on the processing

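The counts of genes called for injection in males, 0 higher and 3 lower, depended on the setting. Higher and lower counts were 1 and 1 after median-ratio rescaling, 10 and 153 with the span slope, 17 and 43 with all 24 libraries, 1 and 6 with no line term, and 0 and 0 with 1 mean per group. Alternatives chosen after the data were seen gave 295 and 4517 without HASN replicates 1 and 2, 1 and 1 without HASN replicate 4 and LASN replicate 6, 105 and 570 with all 24 libraries and the span slope, and 45 and 23 with all 24 and rescaling. Leaving out each male in turn gave 0 to 1 higher and 0 to 2 lower, and for the difference between lines 0 to 3430 higher and 0 to 384 lower, the upper ends without HASN replicate 4. Where 1 HASI male was left, it was taken to vary like the other groups. The difference between sexes stayed at 0 calls in all 18 alternatives run. The replicate block gave 0 lower and 0 higher. The numbers were not taken to pair the males in the main fit. The 5 same-numbered pairs of injected and not injected males had correlations of -0.51 to 0.39, and 0 of 8 libraries correlated best with their own number. So few pairs cannot show that the numbers carry nothing shared. The difference in mitochondrially encoded share was 4.35 to 7.13 percentage points with a male left out (exact permutation p 0.0167 to 0.0875), and that of the 10 most abundant genes 2.89 to 5.86 (exact permutation p 0.0333 to 0.24).

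Values near 0 turned sign, all uncalled. After rescaling the log2 fold changes were 0.18 for CLDN1, 0.024 for JCHAIN, 0.063 for BF2, 0.25 for FABP2 and 0.13 for VIL1. FABP2 was 0.0926 and CHGA -0.0025 with the replicate block. FABP2 was 0.044 with 1 mean per group, and with no line term CLDN1 was 0.040, BLB1 0.030 and FABP2 0.028. Without HASN replicates 1 and 2 PIGR was -0.066 and FABP2 0.00017, and without HASN replicate 4 and LASN replicate 6 CLDN1 was 0.046. With all 24 libraries CLDN1 was 0.0047 with the slope, and with rescaling CLDN1 was 0.20, BF2 0.078, FABP2 0.24 and VIL1 0.13. With each male left out CLDN1 ran from -0.10 to 0.055, FABP2 from -0.17 to 0.18 and JCHAIN from -0.47 to 0.10. The cause of these changes was not tested. With 5 against 6 males and unknown depth, a value that misses the threshold does not show that the groups are alike.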
